A study of Mus musculus with 14 samples.

Results

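The genes described here carry reducing equivalents from cytosolic NADH into mitochondria or move pyruvate carbon into and out of the tricarboxylic acid cycle. They are the rows of the 3 deposited count tables whose Ensembl identifier has 1 of 10 symbols (Gpd1, Gpd2, Mdh1, Mdh2, Got1, Got2, Slc25a12, Slc25a13, Me1 and Pcx), which makes 10 of the 37310 genes in each table. All 10 were found in all 3 tables and all 10 passed the filter on low counts in every comparison. RNA was sequenced from 14 mouse libraries in 6 groups. Wild-type pancreatic β-cells, which make insulin, came from neonates at postnatal day 6 (n = 3) and from adults at day 45 (n = 3). Whole islets, which also hold other endocrine cells, vessels and connective tissue, were taken at 8 weeks from mice labelled TSC1 KO and from controls labelled RC (n = 2 each). Whole islets were also taken at 4 weeks from mice labelled Db and from controls labelled BKS (n = 2 each). The design text names the first of these a β-cell knockout of Tsc1, the gene of a protein that restrains the growth kinase complex mTORC1. Its deleted exons and Cre driver, the allele behind the label Db, the meaning of the prefixes RC and BKS, and any allele that the controls carry are not stated. The strain label is C57BL/6 for all 14 libraries. How the β-cells were obtained, and whether each library comes from its own animals, is not stated either, so the p-values speak only for the spread among these libraries, part of which may be technical.

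Glycolysis leaves NADH in the cytosol, and the inner mitochondrial membrane does not pass it. The glycerol phosphate shuttle hands its electrons to the respiratory chain through the cytosolic enzyme Gpd1, which reduces dihydroxyacetone phosphate, and Gpd2, the flavin-linked enzyme on the outer face of the inner membrane, which oxidises glycerol 3-phosphate again. The malate-aspartate shuttle does the same through cytosolic and mitochondrial malate dehydrogenase (Mdh1 and Mdh2), cytosolic and mitochondrial aspartate aminotransferase (Got1 and Got2) and the aspartate-glutamate carriers Slc25a12 (aralar) and Slc25a13 (citrin). Pcx, pyruvate carboxylase, makes oxaloacetate from pyruvate in the matrix, which refills the cycle (anaplerosis), and Me1, the cytosolic malic enzyme, returns malate to pyruvate with the production of NADPH. β-cells are known for high shuttle and carboxylase activity and for little lactate dehydrogenase, so that pyruvate is mostly used by mitochondria. All values below are transcript levels, not enzyme activities or fluxes.

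Promoter windows of RefSeq (build GRCm38.p6) matched 9 of the 10 genes, and Gpd1 had no entry. The 250 bases before the start are shown for the genes that were called in Db islets, the comparison with the most calls among the 10 genes, because 4 of them moved the same way there and Gpd2 moved the other way. The first of the Pcx windows is added for the largest fold in TSC1 KO islets. Capitals mark matches, on either strand, to 4 motifs: TGATGCAA, the amino acid response element bound by Atf4 (read on the other strand as TTGCATCA), TGACGTCA, the cAMP response element, CACGTG, an E-box, and the palindrome bound by Banp, which stands in capitals 3 times in the Mdh2 window.
Mdh2, chr5:135778399-135778648, plus strand: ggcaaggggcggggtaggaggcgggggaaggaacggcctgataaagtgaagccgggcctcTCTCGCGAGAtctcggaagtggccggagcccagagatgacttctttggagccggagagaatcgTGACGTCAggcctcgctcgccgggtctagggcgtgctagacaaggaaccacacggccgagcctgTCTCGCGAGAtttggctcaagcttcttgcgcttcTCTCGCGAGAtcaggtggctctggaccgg
Got1, chr19:43524606-43524855, minus strand: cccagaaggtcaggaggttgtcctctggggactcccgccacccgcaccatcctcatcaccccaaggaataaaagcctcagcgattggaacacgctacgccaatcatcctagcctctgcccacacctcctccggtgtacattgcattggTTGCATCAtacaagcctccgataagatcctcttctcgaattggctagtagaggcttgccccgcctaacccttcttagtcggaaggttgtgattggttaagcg
Got2, chr8:95888402-95888651, minus strand: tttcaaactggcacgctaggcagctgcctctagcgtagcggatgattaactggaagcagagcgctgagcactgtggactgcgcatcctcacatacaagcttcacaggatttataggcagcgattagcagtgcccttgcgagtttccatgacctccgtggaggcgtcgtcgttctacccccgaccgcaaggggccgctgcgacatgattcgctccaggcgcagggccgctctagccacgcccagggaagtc
Slc25a12, chr2:71367756-71368005, minus strand: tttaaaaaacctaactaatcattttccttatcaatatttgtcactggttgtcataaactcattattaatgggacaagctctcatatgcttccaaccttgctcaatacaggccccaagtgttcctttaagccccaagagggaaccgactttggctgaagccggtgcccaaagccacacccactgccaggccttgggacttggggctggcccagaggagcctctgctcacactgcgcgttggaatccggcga
Gpd2, chr2:57237428-57237677, plus strand: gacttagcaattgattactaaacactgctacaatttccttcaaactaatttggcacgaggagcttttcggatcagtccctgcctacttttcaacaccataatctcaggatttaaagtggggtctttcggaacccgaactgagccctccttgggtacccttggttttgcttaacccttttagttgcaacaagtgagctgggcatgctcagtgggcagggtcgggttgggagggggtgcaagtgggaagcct
Gpd2, second start, chr2:57238132-57238381, plus strand: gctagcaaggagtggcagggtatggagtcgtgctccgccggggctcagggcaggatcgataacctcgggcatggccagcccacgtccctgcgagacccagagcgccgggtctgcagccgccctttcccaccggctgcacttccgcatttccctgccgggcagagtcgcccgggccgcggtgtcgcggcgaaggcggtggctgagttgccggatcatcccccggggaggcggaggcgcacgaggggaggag
Pcx, chr19:4510222-4510471, plus strand: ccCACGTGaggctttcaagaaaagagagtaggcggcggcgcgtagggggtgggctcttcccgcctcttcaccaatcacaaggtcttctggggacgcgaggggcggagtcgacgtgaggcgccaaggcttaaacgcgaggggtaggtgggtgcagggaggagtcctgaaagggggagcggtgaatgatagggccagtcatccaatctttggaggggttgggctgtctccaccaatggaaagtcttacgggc
Mdh2 held the Banp palindrome 3 times, beginning 190, 63 and 29 bases before the start, and a cAMP response element 127 bases before it. Got1 held 1 amino acid response element, 102 bases before its start. The first Pcx window held an E-box at 248 bases, as did the Slc25a13 window at 125 bases. The window of the second Pcx start (chr19:4594069-4594318, plus strand), which is not shown, held no match. Among all 32851 windows of the same table, 0.39% held the Banp palindrome, 0.791% the amino acid response element, 1.55% the cAMP response element and 6.02% the E-box. The antioxidant response element (TGACNNNGC, 10.2% of windows), the estrogen-related receptor site (TCAAGGTCA, 0.387%) and the Nrf1 site (3.74%) were searched as well and matched none of the windows of the 9 genes. The motifs were chosen after the windows had been read, no overlap between matches occurred, and a match describes letters, not a bound site.

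Gene counts per library ranged from 3507929 to 17688772, the TSC1 KO libraries being the smallest. The summed counts of Ins1 and Ins2, the insulin genes, made up 0.97% to 1.05% of gene counts in TSC1 KO islets against 24.53% to 27.86% in RC control islets, and 45.53% to 48.33% in Db islets against 61.04% to 70.03% in BKS control islets. Genes of the mitochondrial genome took 39.77% to 46.83% in TSC1 KO islets and at most 12.36% in every other library. They took 9.05% to 12.36% in RC control, 0.26% to 0.57% in BKS control and 0.15% to 0.25% in Db islets. Tsc1 stood at 25.1 and 54.1 CPM (a gene's count relative to the scaled total of its library) in RC control and 31.0 and 34.5 CPM in TSC1 KO islets (a log2 change of -0.28 ± 0.38 SE with an edgeR adjusted p of 0.638). Reads counted over a whole gene in whole islets do not check the loss of some exons in 1 cell type, so the knockout is taken from the label. Lepr, the leptin receptor gene that the db mutation affects, had 1.18 and 0.257 CPM in BKS control and 0.0553 and 0.194 CPM in Db islets, too few to be tested. All 8 β-cell markers were detected in all 14 libraries. Endothelial, mesenchymal and immune markers were low in the β-cell libraries, with summed levels of at most 26.6, 166 and 13.3 CPM. Other islet endocrine markers summed to between 348 and 2090 CPM there, duct markers to between 240 and 540 CPM and acinar markers to at most 71.9 CPM. Ins1 and Ins2 made up 1.83% to 2.62% of gene counts in neonatal and 4.36% to 7.22% in adult β-cell libraries.

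Per kilobase of transcript, the malate dehydrogenases were the most abundant of the 10 transcripts in all 6 groups. In neonatal β-cells Mdh2 stood at 150 ± 21.9 CPM per kilobase, Mdh1 at 61.0 ± 12 and Pcx at 41.9 ± 5.41 (SD, n = 3). In adult β-cells the same genes led in the same order, at 123 ± 7.62, 72.9 ± 11.4 and 54.6 ± 6.06 CPM per kilobase. Got2, Gpd1 and Gpd2 followed within each other's spread, between 20.3 and 26.5 CPM per kilobase in both ages, then Got1 at 13.1 and 13.3, Slc25a12 at 10.3 and 11, and Me1 at 5.20 and 8.38. By group mean Slc25a13 was last in all 6 groups, with means between 0.281 and 2.25 CPM per kilobase. In neonatal β-cells its range overlapped that of Me1 (0.459 to 4.47 against 3.07 to 6.54 CPM per kilobase). Of the carriers, the aralar transcript Slc25a12 was thus the more abundant in every group. In RC control and BKS control islets Mdh1 and Mdh2 could not be separated (75.8 ± 4.63 against 76.2 ± 10.1, and 35.3 ± 2.38 against 35.0 ± 2.41 CPM per kilobase, SD, n = 2), and Pcx held the third place in both, at 24.1 and 18.5. Pcx lay in the ninth place in TSC1 KO islets, at 3.91 ± 0.744 CPM per kilobase. In Db islets Gpd1 was the third, at 21.8 ± 1.18, and Gpd2 the ninth, at 1.46 ± 0.441 CPM per kilobase. Levels in different tables were scaled separately and are not compared between them.

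**Figure D1:**
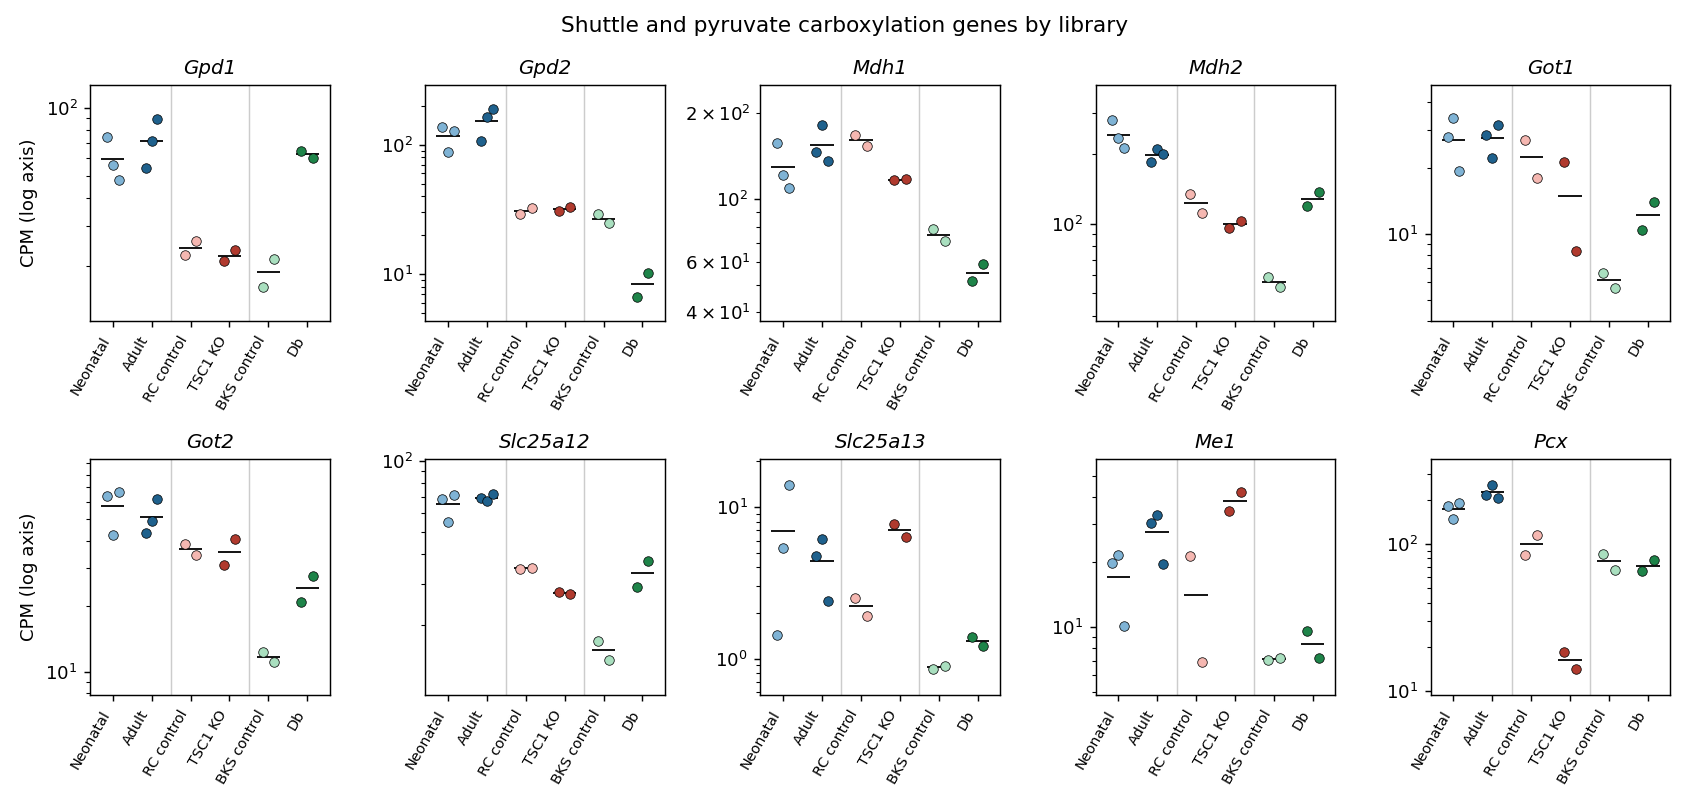
Each panel plots 1 gene's CPM on a log axis in all 14 libraries, with a point for each library, a bar for the group mean and vertical lines between the 3 tables, which were scaled separately. Pcx lies at 14.05 and 18.4 CPM in TSC1 KO islets against 84.4 and 115 CPM in their controls, and Gpd1 and Gpd2 lie on opposite sides of their controls in Db islets.

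The first comparison asked how these transcripts differ between neonatal and adult β-cells, an interval in which β-cells gain mature glucose-stimulated secretion. None of the 10 genes was called (edgeR, adjusted p under 0.05), while 6.98% of all 14304 genes tested were. DESeq2 and limma-voom also called 0 of the 10, beside 11.1% and 6.69% of all genes, and 1 of the 10 had an unadjusted p under 0.05, as did 2978 of all 14304 genes. Pcx was 182, 148 and 190 CPM in the neonatal and 216, 255 and 208 CPM in the adult libraries. All adult values lay above all neonatal ones, by 0.38 ± 0.17 SE on the log2 scale (the quasi-likelihood test of edgeR gave an unadjusted p = 0.0408 and an adjusted p = 0.216). With the trend of each library with GC content removed, Pcx was called at 0.66 on the log2 scale (edgeR adjusted p = 0.0281, the lowest of 13 alternatives, which reached 0.579). Mdh2 was 280, 234 and 211 CPM in neonatal and 185, 209 and 200 CPM in adult cells, and here all adult values lay below all neonatal ones (a log2 change of -0.29 ± 0.17 SE with an edgeR adjusted p of 0.36). These were the only members of the 10 whose groups did not overlap, 2 of 10 beside 27.4% of all genes tested.

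The shuttle partners of Mdh2 showed no such separation. Mdh1 ran from 109 to 158 CPM in neonatal and from 136 to 182 CPM in adult cells (a log2 change of 0.26 ± 0.20 SE with an edgeR adjusted p of 0.522). Gpd1 was 74.0, 56.0 and 48.1 CPM against 54.4, 71.4 and 89.1 CPM, and Gpd2 was 136, 87.6 and 128 CPM against 107, 162 and 188 CPM, so the ages overlapped for both enzymes of the glycerol phosphate shuttle. Their log2 fold changes were 0.27 ± 0.25 and 0.38 ± 0.23 SE (edgeR adjusted p = 0.621 and 0.385). Got1, Got2 and Slc25a12 had log2 fold changes of 0.02, -0.16 and 0.10 (SE 0.33, 0.26 and 0.22). Me1 was 19.8, 21.5 and 10.1 CPM in neonatal and 30.2, 33.0 and 19.5 CPM in adult cells (a log2 change of 0.69 ± 0.38 SE with an edgeR adjusted p of 0.331). Slc25a13 had 22, 80 and 229 reads in the 3 neonatal libraries, a spread wider than any difference between the ages, and its log2 fold change of -0.64 ± 0.85 SE became 0.38 without neonatal replicate 3b. That library also had the highest summed mesenchymal markers of the 6, 166 CPM against at most 38.3 CPM. Of 8 β-cell markers 4 were called higher and none lower in adult cells (summed 22500 to 31500 CPM in neonatal and 51600 to 87300 CPM in adult libraries), and 3 of 7 duct markers were lower (433 to 540 CPM against 240 to 277 CPM), with none at 0. The duct marker Cftr went the other way without a call (log2 change 1.18, edgeR adjusted p = 0.0624). Hhex of 6 other islet endocrine markers tested (log2 change -2.97) and Ctrb1 of 7 acinar markers tested (-4.07) were called lower. No endothelial, mesenchymal or immune marker tested was called. The part of these markers in the values above was not tested. The median log2 fold change of the 10 genes was 0.18, against -0.03 for all genes tested.

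The second comparison asked what differs in islets labelled as lacking Tsc1 in β-cells. Pcx, the carboxylase that refills the tricarboxylic acid cycle, was 84.4 and 115 CPM in RC control and 18.4 and 14.05 CPM in TSC1 KO islets. Both knockout libraries lay far below both controls, a 6.1-fold difference (a log2 change of -2.61 ± 0.27 SE with an edgeR adjusted p of 0.0105). Across 13 alternatives its log2 fold change stayed between -2.85 and -2.36 and it was called in 11. Without TSC1 KO replicate 1 or 2 the adjusted p was 0.0892 or 0.148, where edgeR called no gene in the whole table (3535 and 3061 genes then had an unadjusted p under 0.05). The other called gene was the carrier Slc25a13, at 2.53 and 1.91 CPM in control and 7.69 and 6.35 CPM in knockout islets. It was 3.16-fold higher (a log2 change of 1.66 ± 0.43 SE with an edgeR adjusted p of 0.0474), but rested on 13 to 33 reads per library and was called in 5 of 13 alternatives (adjusted p 0.0418 to 0.239). The 1 lower and 1 higher call among the 10 genes stand beside 18.6% of all 14515 genes tested, 10.0% lower and 8.63% higher. DESeq2 called Pcx as the 1 gene of the 10, beside 17.4% of all genes.

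Me1, the malic enzyme, was not called and had a wide spread in the controls. It was 21.3 and 6.92 CPM in RC control and 34.5 and 42.1 CPM in TSC1 KO islets, so the groups did not overlap (a log2 change of 1.44 ± 0.53 SE with an edgeR adjusted p of 0.119). Without RC control replicate 1 it was called, at 2.46 (edgeR adjusted p = 0.00179). The glycerol phosphate shuttle showed no detectable difference: Gpd1 was 22.3 and 25.7 CPM against 20.97 and 23.4, and Gpd2 29.2 and 32.5 CPM against 31.0 and 32.8. Their log2 fold changes were -0.12 ± 0.22 and 0.05 ± 0.20 SE. Among the enzymes of the malate-aspartate shuttle, Mdh1 was 168 and 154 CPM in control and 116 and 118 CPM in knockout islets (a log2 change of -0.46 ± 0.22 SE with an edgeR adjusted p of 0.182). Mdh2 was 134 and 111 CPM against 95.6 and 103 CPM (a log2 change of -0.31 ± 0.22 SE with an edgeR adjusted p of 0.36). Slc25a12 was 34.8 and 35.0 CPM against 27.7 and 27.1 CPM (a log2 change of -0.35 ± 0.19 SE with an edgeR adjusted p of 0.243). For these 3 genes the groups did not overlap, though none was called. Got1 differed more between the knockout libraries (21.4 and 8.36 CPM) than between the groups, and Got2 was 38.6 and 34.4 CPM against 30.8 and 40.5 CPM. In all, 6 of the 10 genes had groups that did not overlap, beside 67.7% of all genes tested.

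The makeup of these islets differed along with the labels. Of 8 β-cell markers 7 were called lower in TSC1 KO islets and Slc2a2 had an edgeR adjusted p of 0.0788, and their summed level was 234000 and 263000 CPM in control against 12700 and 13200 CPM in knockout islets, with no marker at 0. All 4 stomach mucosa markers that could be tested were higher (summed 19.7 and 10.9 CPM against 190 and 320 CPM), with 3 of the 7 listed markers at 0 in both knockout libraries. Duct markers were higher for 2 of 7 (933 and 283 CPM against 2160 and 2930 CPM) and endothelial markers for 2 of 6 (1960 and 2030 CPM against 4170 and 3130 CPM), with none at 0. Other islet endocrine markers were higher for 1 and lower for 4 of 6 tested (29900 and 25600 CPM against 7070 and 2670 CPM). None of 7 mesenchymal markers was called, but 6 of the 7 had groups that did not overlap, their median log2 change was 2.79, and their summed level was 528 and 252 CPM in control against 633 and 4320 CPM in knockout islets, where TSC1 KO replicate 2 stood apart. None of 9 acinar, 6 immune and 5 erythroid markers was called, and adipocyte markers were at or near 0. In bulk samples fewer cells of a type and less RNA per cell cannot be told apart, and the part of this makeup in the values of Pcx, Slc25a13 and Me1 was not tested.

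The third comparison was of islets labelled Db with BKS control islets. Here 6 of the 10 genes were called, 5 higher and 1 lower, beside 48.2% of all 14369 genes tested, of which 24.3% were higher and 23.9% lower. The enzymes of the glycerol phosphate shuttle moved in opposite directions. Gpd1, the cytosolic enzyme, was 16.1 and 21.4 CPM in control and 64.6 and 59.9 CPM in Db islets, 3.33-fold higher (a log2 change of 1.73 ± 0.22 SE with an edgeR adjusted p of 2.5e-07). Gpd2, the mitochondrial enzyme, was 29.0 and 24.8 CPM in control and 6.63 and 10.2 CPM in Db islets, 3.18-fold lower (a log2 change of -1.67 ± 0.24 SE with an edgeR adjusted p of 2.53e-06). Each was called in 13 of 13 alternatives, with Gpd1 between 1.27 and 2.07 and Gpd2 between -2 and -1.37 on the log2 scale. Removing the GC trend gave Gpd1 its lowest value. The Gpd1 transcript has 56.9% GC and that of Gpd2 46.5%, and the part of GC content in these values was not tested.

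In the malate-aspartate shuttle 4 of the 6 genes were called, all higher, beside 48.2% of all genes tested called and 24.3% called higher. Mdh2, the mitochondrial enzyme, was 59.0 and 53.5 CPM in control and 119 and 136 CPM in Db islets, 2.27-fold higher (a log2 change of 1.18 ± 0.20 SE with an edgeR adjusted p of 2.54e-05). Mdh1, the cytosolic one, was 78.4 and 71.2 CPM in control and 51.4 and 58.9 CPM in Db islets. Both Db values of Mdh1 lay below both controls, but it was not called (a log2 change of -0.44 ± 0.20 SE with an edgeR adjusted p of 0.0652) except without BKS control replicate 2 (adjusted p = 0.0471). Both aminotransferases rose: Got1 from 6.64 and 5.65 to 10.45 and 13.96 CPM, and Got2 from 12.4 and 11.2 to 20.8 and 27.6 CPM. These were 1.98-fold and 2.05-fold changes (log2 fold changes 0.99 ± 0.27 and 1.04 ± 0.23 SE, with edgeR adjusted p-values of 0.00347 and 0.000587). Got1 lost its call without Db replicate 2 (edgeR adjusted p = 0.0865), and without the GC trend the log2 change of Got2 was 0.57 (adjusted p = 0.0351). Slc25a12, the main carrier here, was 17.2 and 14.2 CPM in control and 29.1 and 37.4 CPM in Db islets, 2.11-fold higher (a log2 change of 1.08 ± 0.22 SE with an edgeR adjusted p of 0.000247). Slc25a13 had 8 and 7 reads in control and 25 in each Db library, or 0.857 and 0.899 CPM against 1.38 and 1.21 CPM, too few for a narrow estimate (a log2 change of 0.56 ± 0.51 SE with an edgeR adjusted p of 0.374).

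The pyruvate enzymes differed less. Pcx was 86.4 and 67.1 CPM in control and 65.3 and 77.9 CPM in Db islets, with overlapping groups (a log2 change of -0.10 ± 0.20 SE with an edgeR adjusted p of 0.701). With the GC trend removed it was called lower, at -0.53 (edgeR adjusted p = 0.0371), and with library size as the only scaling its value was 0.19, so its direction depends on the scaling. Me1 was 7.07 and 7.19 CPM in control and 9.57 and 7.22 CPM in Db islets (a log2 change of 0.23 ± 0.27 SE with an edgeR adjusted p of 0.495). Groups did not overlap for 9 of the 10 genes, beside 74.7% of all genes tested, and the median log2 fold change of the 10 was 0.77 against -0.03 for all genes.

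Markers of other cells also differed between these islets. Of 8 β-cell markers Iapp was higher (log2 fold change 2.35) and 5 were lower, the glucose transporter Slc2a2 by the most (-4.08), while the summed level was 599000 and 919000 CPM in control and 494000 and 427000 CPM in Db islets. Acinar markers were higher for 6 of 8 tested and lower for 1 (summed 23.7 and 21.6 CPM against 284 and 129 CPM), mesenchymal markers higher for 4 of 6 tested (167 and 264 CPM against 510 and 472 CPM) and erythroid markers higher for 4 of 5 (18.1 and 10.3 CPM against 38.6 and 59.3 CPM). Duct and endothelial markers moved both ways, 2 higher and 2 lower of 6 tested, and 2 higher and 3 lower of 6. Their summed levels were 293 and 290 CPM against 747 and 712 CPM, and 699 and 696 CPM against 512 and 514 CPM. Of 6 other islet endocrine markers tested, Sst was higher (log2 fold change 1.57) and Hhex lower (3130 and 6430 CPM summed in control, 8700 and 6590 CPM in Db islets), and of 5 immune markers tested Ptprc was lower (21.5 and 22.3 CPM against 20.8 and 20.9 CPM). No acinar, mesenchymal, immune, erythroid, duct or endothelial marker was at 0 in any of these libraries, while adipocyte markers were at or near 0. In these bulk samples a change in cell numbers and a change in RNA per cell cannot be told apart. The part of these marker differences in the shuttle values was not tested.

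**Figure D2:**
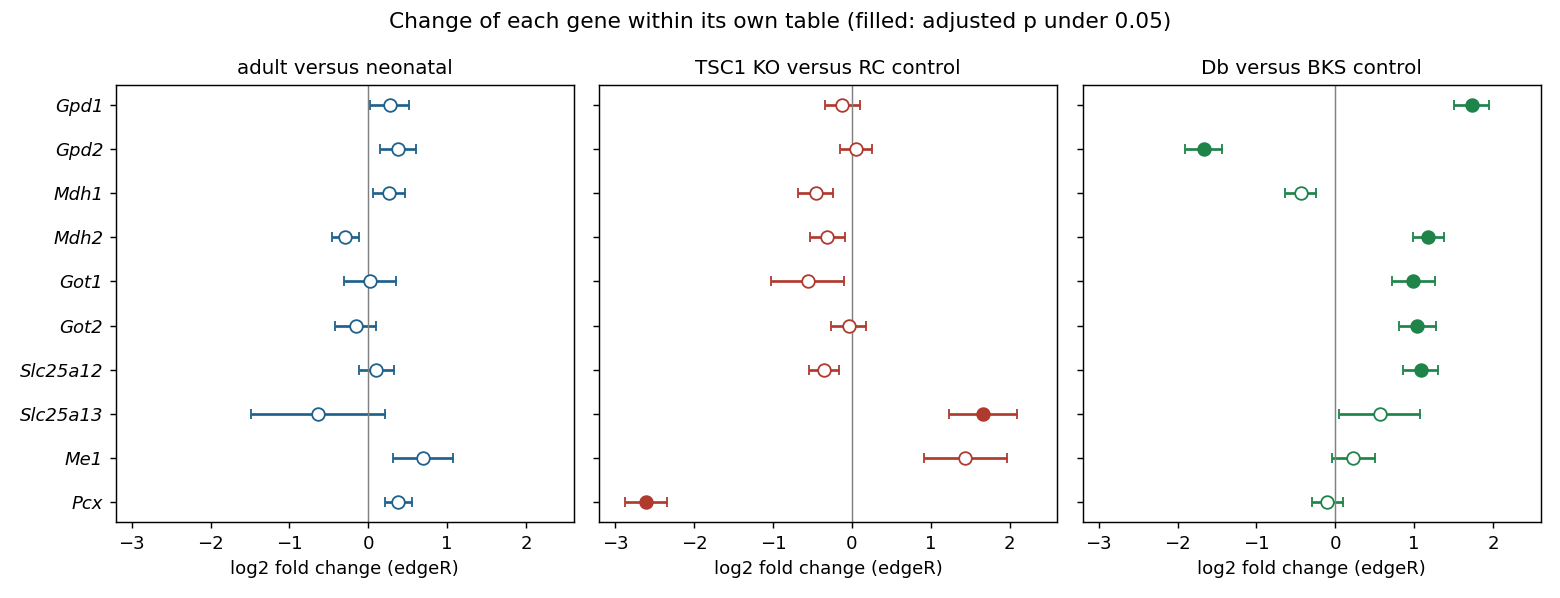
The log2 fold change of each of the 10 genes (x axis) with its standard error is plotted for the 3 comparisons, with filled points where the edgeR adjusted p was under 0.05. No point is filled for adult against neonatal β-cells, 2 are for TSC1 KO islets (Slc25a13 at 1.66 and Pcx at -2.61) and 6 for Db islets, where Gpd1 lies at 1.73 and Gpd2 at -1.67.

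The islet comparisons share no control library, so the difference between the TSC1 KO and Db effects was tested in 1 edgeR fit of all 8 islet libraries. The effects differed for 7 of the 10 genes, beside 31.8% of 15702 genes tested. Pcx had the largest difference, -2.60 ± 0.34 SE on the log2 scale (edgeR adjusted p = 0.000214). Gpd1 differed by -1.94 ± 0.31 and Gpd2 by 1.63 ± 0.34, each being changed in Db islets and near 0 in TSC1 KO islets (edgeR adjusted p = 0.000759 and 0.00347). Mdh2 differed by -1.57 ± 0.29 and Slc25a12 by -1.51 ± 0.30 (edgeR adjusted p = 0.00165 and 0.00272). The differences for Got1 and Got2, -1.63 ± 0.54 and -1.17 ± 0.33, were less firm, called in 7 and 9 of 13 alternatives (edgeR adjusted p = 0.0384 and 0.0166). For Mdh1, Slc25a13 and Me1 the difference was not called, with values of -0.11, 1.02 and 1.12 (edgeR adjusted p = 0.797, 0.27 and 0.184), and Me1 was called without RC control replicate 1 (adjusted p = 0.000676). Genotype, age and label prefix all differ between the islet tables, so which of them goes with these differences cannot be told apart. The share of mitochondrially encoded counts also differs between the controls, 9.05% to 12.36% in RC against 0.26% to 0.57% in BKS. Its part in these differences was not tested.

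Ratios of counts of 2 genes in the same library do not depend on how libraries are scaled. The Gpd1 to Gpd2 ratio was 0.554 and 0.866 in BKS control and 9.71 and 5.84 in Db islets, a 10.9-fold shift in the mean (log2 difference 3.44). In TSC1 KO islets it was 0.678 and 0.716 against 0.763 and 0.792 in RC control, and in β-cells it stayed between 0.377 and 0.639 at both ages. The Mdh1 to Mdh2 ratio was 1.33 in both BKS control libraries and 0.432 in both Db libraries, 3.08-fold lower, with the same rounded value within each group. It was 1.25 and 1.39 in RC control and 1.22 and 1.15 in TSC1 KO islets. In β-cells it was 0.564, 0.518 and 0.518 in neonatal and 0.792, 0.871 and 0.680 in adult libraries, so all adult values were higher, by 1.46-fold in the mean (two-sided exact permutation test p = 0.1, the smallest that 3 against 3 allows). The Got1 to Got2 ratio held at 0.536 and 0.509 in BKS control and 0.502 and 0.506 in Db islets, although both genes rose there.

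For pyruvate, the Me1 to Pcx ratio was 0.254 and 0.0606 in RC control and 1.87 and 2.98 in TSC1 KO islets, a 19-fold shift (log2 difference 4.25), and lay between 0.0532 and 0.147 in all β-cell, BKS control and Db libraries. The ratio of Pcx to Pdha1, the catalytic subunit of pyruvate dehydrogenase, which competes for the same pyruvate, was 0.835 and 1.14 in RC control and 0.189 and 0.140 in TSC1 KO islets, 6-fold lower. In Db islets it was 2.74 and 3.12 against 3.10 and 2.32 in control, with overlap. The carrier ratio, Slc25a12 to Slc25a13, was 13.4 and 17.7 in RC control and 3.57 and 4.18 in TSC1 KO islets, 3.98-fold lower. With 2 libraries against 2 the exact permutation test cannot go below 0.333, and after Benjamini-Hochberg adjustment over the 18 ratios computed all values lay between 0.6 and 1, so the ratios are descriptions of these libraries.

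**Figure D3:**
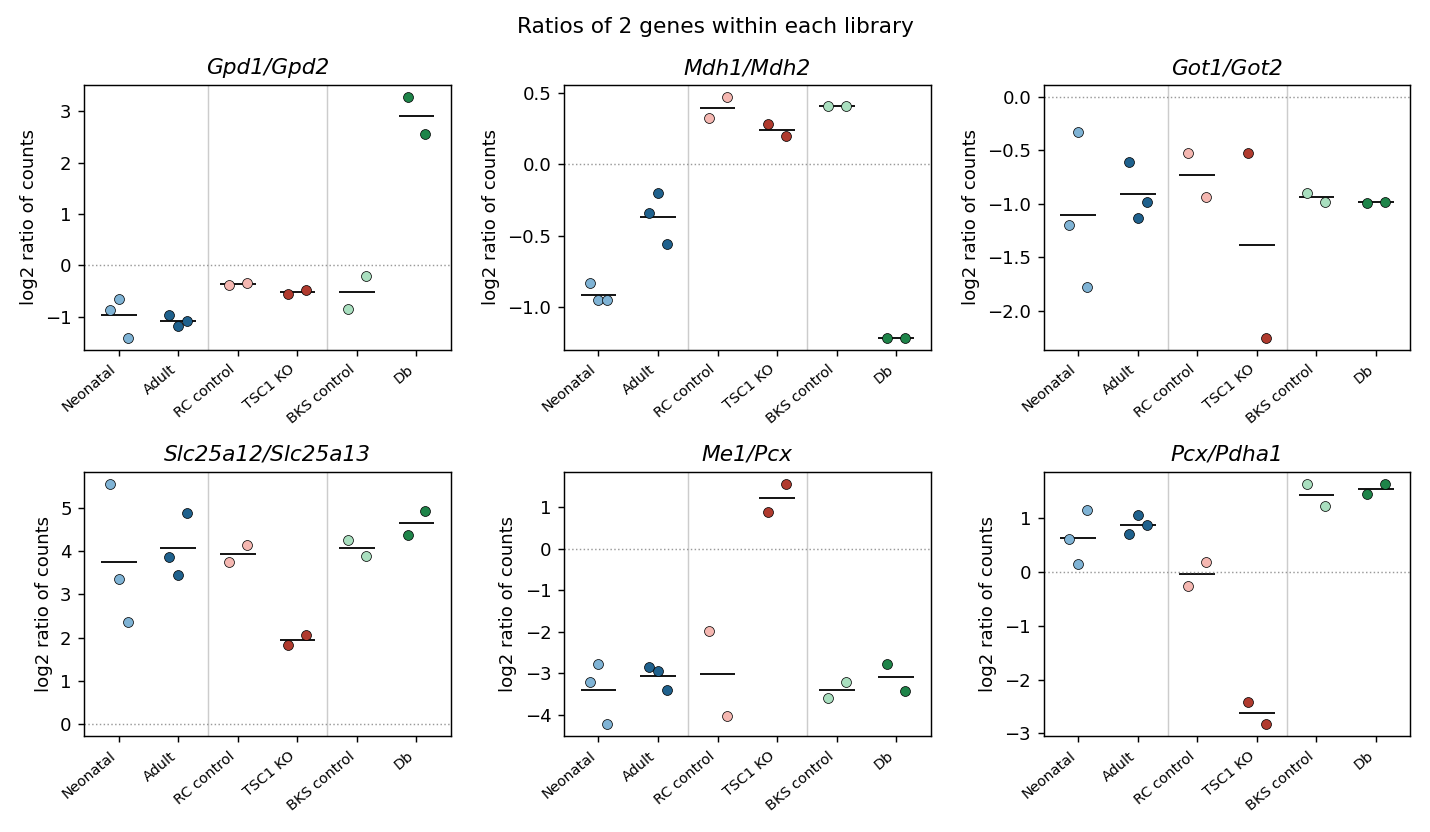
Each panel plots the log2 ratio of the counts of 2 genes in each of the 14 libraries, with a bar for the group mean and a dotted line where both genes have equal counts. The Gpd1/Gpd2 ratio of the Db libraries (9.71 and 5.84 before the log) and the Me1/Pcx ratio of the TSC1 KO libraries (1.87 and 2.98) are the values above 1 in their panels.

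The neighbouring genes of these pathways were counted in 5 lists of 37 genes. In adult against neonatal β-cells 1 of 34 tested was called higher and none lower, beside 6.98% of all genes. This was Ldhb, a lactate dehydrogenase subunit, at 4.74 ± 2.27 CPM in neonatal and 17.7 ± 5.19 CPM in adult cells (SD, n = 3; a log2 change of 1.90 ± 0.54 SE with an edgeR adjusted p of 0.0454). Ldha, the other main subunit, was at 8.95 CPM or less in every β-cell library (log2 fold change -1.49 ± 1.68 SE). The mitochondrial pyruvate carrier genes Mpc1 and Mpc2 and Pdha1 had log2 fold changes of 0.19, -0.21 and 0.12, the oxoglutarate-malate carrier Slc25a11 of the malate-aspartate shuttle -0.52 and the citrate carrier Slc25a1 0.37, none of them called.

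In TSC1 KO islets 3 of 35 tested neighbours were called higher and 3 lower, a share near the 18.6% of all genes (8.63% higher and 10.0% lower). Alanine aminotransferases, which interconvert pyruvate and alanine, were among the higher ones: Gpt2 was 14.99 ± 8.51 CPM in control and 73.8 ± 6.80 CPM in knockout islets (SD, n = 2; a log2 change of 2.30 ± 0.41 SE with an edgeR adjusted p of 0.0223), and Gpt had a log2 fold change of 1.00 ± 0.24 SE (adjusted p = 0.0399). Aco1, the cytosolic aconitase, was higher as well (0.97 ± 0.23 SE, adjusted p = 0.039 by edgeR). Acly, which splits citrate into acetyl-CoA and oxaloacetate in the cytosol, was lower (a log2 change of -1.47 ± 0.32 SE with an edgeR adjusted p of 0.0306), as were the mitochondrial glutamate carrier Slc25a22 (-1.18 ± 0.23 SE, adjusted p = 0.0249) and Pck2, the mitochondrial phosphoenolpyruvate carboxykinase (-0.80 ± 0.20 SE, adjusted p = 0.0418). None of the 13 genes of pyruvate entry was called, and Mpc1, Mpc2 and Pdha1 had log2 fold changes of -0.11, 0.60 and -0.02. Ldha was 31.8 and 82.8 CPM in control and between 106 and 108 CPM in knockout islets (0.90 ± 0.45 SE, adjusted p = 0.212 by edgeR). Slc25a11 and Slc25a1 had log2 fold changes of 0.18 and -0.81 (edgeR adjusted p = 0.55 and 0.0638).

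In Db islets 11 of 35 tested neighbours were called higher and 7 lower, a share near the 48.2% of all genes (24.3% higher and 23.9% lower). Of the glycerol phosphate partners, glycerol kinase (Gk) was lower with few reads, at 1.134 ± 0.393 CPM in control and 0.190 ± 0.200 CPM in Db islets (SD, n = 2; a log2 change of -2.56 ± 0.72 SE with an edgeR adjusted p of 0.0047). The glutamate carrier Slc25a22 was higher (1.38 ± 0.23 SE, adjusted p = 3.03e-05 by edgeR) and Slc25a11 was not called (-0.25 ± 0.21 SE). Of the 13 genes of pyruvate entry 3 were higher and 4 lower, among them Pdk1, a kinase that inactivates pyruvate dehydrogenase, at 1.12 ± 0.26, Pdp1, the opposing phosphatase, at -1.14 ± 0.36, and the pyruvate carrier gene Mpc2 at -1.11 ± 0.22 (log2 fold changes ± SE, with edgeR adjusted p-values of 0.000883, 0.00948 and 0.000223). Mpc1 and Pdha1 had log2 fold changes of 0.29 and -0.22 and were not called. In the lactate and alanine list Ldhb was lower (-0.96 ± 0.33 SE), Gpt2 (0.92 ± 0.28) and Ldhd (0.88 ± 0.25) were higher, and Ldha was not called (-0.35 ± 0.29). The list of citrate, malate and isocitrate cycling had 5 higher and 1 lower of 11 tested. It was led by Me3, the mitochondrial NADP-dependent malic enzyme (1.58 ± 0.36 SE, adjusted p = 0.000754 by edgeR), Pck2 (1.54 ± 0.20 SE, adjusted p = 7.46e-07) and Acly (1.03 ± 0.22 SE, adjusted p = 0.000454), while Slc25a1 was not called (0.29 ± 0.20). For Slc25a22, Pck2 and Acly, which were lower in TSC1 KO islets and higher in Db islets, the difference between the effects was -2.65 ± 0.39, -2.43 ± 0.29 and -2.60 ± 0.39 SE on the log2 scale (adjusted p = 0.000441, 0.000107 and 0.000477 in the joint edgeR fit).

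**Figure D4:**
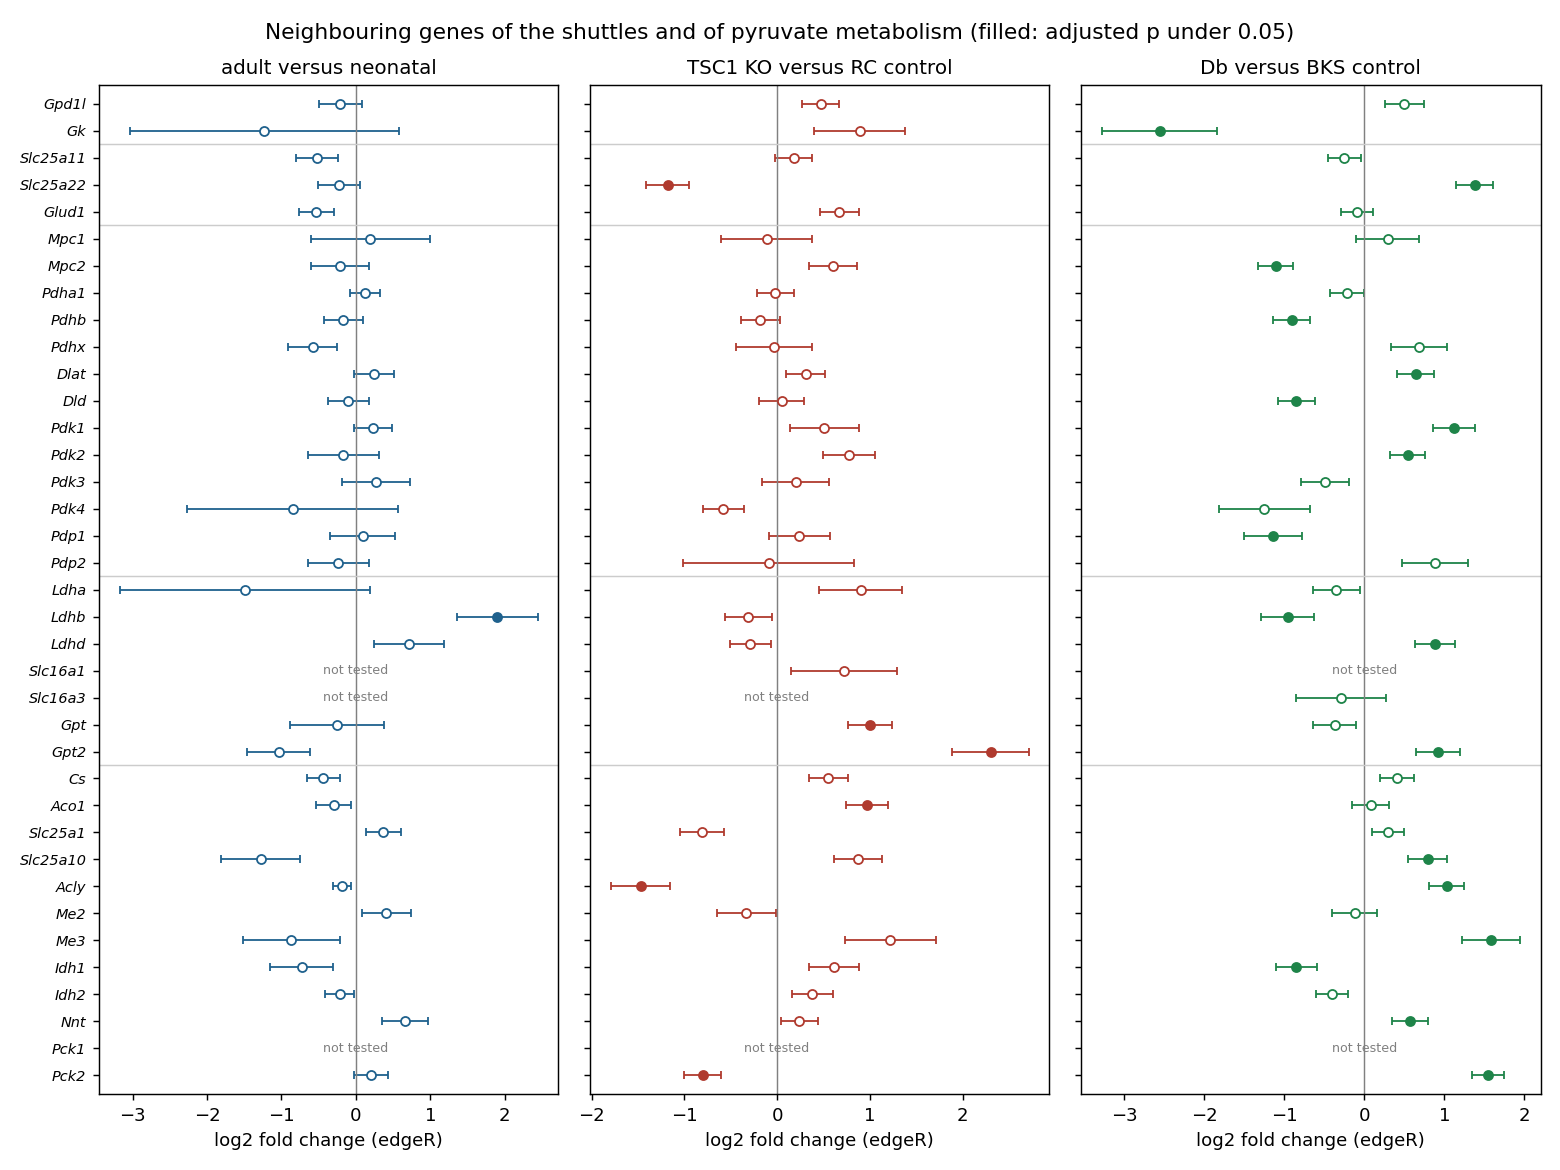
The log2 fold change of the 37 neighbouring genes (x axis, a different range in each panel) with its standard error is plotted for the 3 comparisons, grouped by list from top to bottom and filled where the edgeR adjusted p was under 0.05. In the Db panel 11 points are filled on the right and 7 on the left, against 3 and 3 for TSC1 KO islets and 1 for adult β-cells (Ldhb at 1.90).

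Some of these rows share sequence with other genes. The pseudogene Got2-ps1 is 99.1% identical to Got2 over 1293 bases and received reads equal to between 31.1% and 82.3% of those of Got2, so the division of reads between them is uncertain. Its own log2 fold change was 1.39 ± 0.27 SE in Db islets (edgeR adjusted p = 0.00018), the same direction as Got2, and 0.44 and -0.10 in the other comparisons, neither called. Gm7049, which is not a row of the tables, is 98.5% identical to Me1 over 1638 bases. Exons of Gpd1, Gpd2, Got2, Mdh1 and Me1 overlap a gene on the other strand by 384, 487, 434, 52 and 30 bases in the annotation (GENCODE M21), and whether reads were counted by strand is not stated, so reads of these partners may be included.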

How the data were processed

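RNA was sequenced from 6 β-cell and 8 islet libraries. The values are raw gene counts deposited by the authors in 3 tables of 37310 Ensembl identifiers, of which 32620 had a symbol in GENCODE M21. The tools listed in the submitters' processing notes are HTSeq 0.7.1, GSNAP, cutadapt 1.13 and DESeq2 1.16.0. These notes give mm9 and NCBIM37 as builds without saying what each was used for. Per the labels' protocols, libraries were made from Trizol RNA of isolated islets with a stranded SMARTer kit. The reference held here is a later build (GRCm38), so no gene coordinates were taken from it, and only the RefSeq promoter windows carry coordinates. Groups come from the sample titles. Among the β-cell columns, both of a pair of neonatal ones are headed 3 and none 2, so they are called 3a and 3b. Rows naming no gene were left out: gene rows held 24.52% to 43.11% of reads in the β-cell table and 35.1% to 44.27% in the Db table, and the TSC1 table has no such rows. Each library, 3a and 3b included, was counted as its own replicate. Replicates differed beyond sampling noise (chi-square per degree of freedom 10.03 to 81.32), which does not show whether they come from separate animals. Every column of per-sample values was used.

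Each table was fitted in edgeR 4.0.16 (R 4.3.3) with filterByExpr (minimum count 10, minimum total 15), TMM scaling, the robust quasi-likelihood F test (two-sided) and Benjamini-Hochberg adjustment over all genes tested, with calls at 0.05. CPM are gene counts scaled to a common total after TMM. The joint islet fit had a term per table and an interaction. Ratios were taken within libraries as log2 of counts with 0.5 added to each gene and compared by exact permutation. Alternatives were DESeq2 1.42.0, limma-voom (limma 3.58.1), other scalings, no filter, GC offsets, replicate blocks, a pseudocount of 1 and leaving out each library. The fit was also run on simulated data with the same dispersion for all genes and few changed genes. That setting differs from these data, and no result here rests on it. Copies were searched in GENCODE M21 transcripts at 90% identity over at least 300 bases. The members and lists were chosen with earlier results of these data known, and the motifs and the copy search were added after the data had been seen. All 10 members are named in every comparison, with up to 3 called genes per list (largest log2 fold change first) and Ldha, Mpc1, Mpc2, Pdha1, Slc25a11 and Slc25a1 throughout. Promoters were to be shown for members called in the comparison with most calls, and the first Pcx window was added. Protein sequences were not used here, and 1 gene of the lists is not reported here.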

Additional observations from a re-analysis of the deposited data

Results flagged for a closer look

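The joint edgeR fit (interaction, n = 2 per group) compared the log2 effect of the TSC1 KO label with that of the Db label. Their difference, TSC1 KO minus Db, was called for 7 of the 10 genes, beside 31.8% of all 15702 genes tested. The differences were -2.60 for Pcx, -1.94 for Gpd1, -1.63 for Got1, -1.57 for Mdh2, -1.51 for Slc25a12, -1.17 for Got2 and 1.63 for Gpd2. For Pcx the difference goes with the low level in TSC1 KO islets, and for Gpd1, Gpd2, Mdh2 and Slc25a12 with the changes in Db islets. The islet tables also differ in age, label prefix and share of mitochondrially encoded counts, which cannot be told apart from the genotype.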

How the results depend on the processing

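Over 13 alternatives per comparison, 121 of 130 gene values kept their direction and side of the threshold in adult against neonatal β-cells, 113 in TSC1 KO islets, 123 in Db islets and 118 for the difference between these effects. Of 102 ratio values 93 kept their direction, and no threshold was applied to them. Members called rose from 0 to 1 in β-cells with the GC trend removed, beside 400 genes called higher and 362 lower of all 14304. In TSC1 KO islets they fell from 2 to 1 with DESeq2, library size only or the GC trend removed, and changed when 1 library was left out. Of all 14515 genes there, DESeq2 called 1256 higher and 1269 lower, library size only 756 and 1961, and GC trend removal 1301 and 1446. No paired analysis was run in β-cells: the labels state no pairing of neonatal with adult libraries, and no neonatal column carries number 2. In the islet tables same-numbered libraries did not deviate together (correlation -0.055 and -0.035). With the replicate block, alone or with the GC trend removed, 1 member was called in TSC1 KO islets, 6 or 7 in Db islets, and 7 for the difference with the block alone. Over all genes the block alone called 727 higher and 921 lower of 14515 in TSC1 KO islets. It called 3369 and 3245 of 14369 in Db islets, and 1723 and 2575 of 15702 for the difference. With the GC trend removed as well, these were 614 and 739 in TSC1 KO and 2979 and 2678 in Db islets. Slc25a13 had an edgeR adjusted p of 0.0804 with the block.

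Some values changed sign. Not all of them were near 0: Slc25a13 in β-cells and the Got1/Got2 ratio in TSC1 KO islets had main log2 values of -0.64 and -0.66. With library size only the sign changed for Got1 (-0.14) and Slc25a12 (-0.07) in β-cells, Gpd2 (-0.21) in TSC1 KO and Pcx (0.19) in Db islets. With the GC trend removed it changed for Slc25a12 in β-cells (-0.01) and Got2 in TSC1 KO islets (0.02, or 0.01 with the replicate block as well). With 1 library left out, β-cell values ran from -0.17 to 0.22 for Got1, -0.01 to 0.17 for Slc25a12 and -1.12 to 0.38 for Slc25a13. TSC1 KO values ran from -0.03 to 0.12 for Gpd2 and -0.25 to 0.14 for Got2, and Db values from -0.24 to 0.12 for Pcx. Log2 ratio differences in β-cells then ran from -0.31 to 0.07 for Gpd1/Gpd2, -0.14 to 0.58 for Got1/Got2, -0.39 to 1.21 for Slc25a12/Slc25a13, -0.07 to 0.65 for Me1/Pcx and -0.01 to 0.50 for Pcx/Pdha1. In TSC1 KO islets Got1/Got2 ran from -1.52 to 0.21, and in Db islets Me1/Pcx ran from -0.02 to 0.64 and Pcx/Pdha1 from -0.08 to 0.33. The cause was not tested.

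Over all genes, library size only moved the median log2 fold change to -0.19, -0.25, 0.29 and -0.47 in the 4 fits, and the calls (higher and lower) from 484 and 515 to 321 and 872 in β-cells, from 1252 and 1451 to 756 and 1961 in TSC1 KO islets, from 3488 and 3431 to 3983 and 1562 in Db islets, and from 2066 and 2922 to 868 and 3811 for the difference. DESeq2 called 746 and 842 in β-cells. Without adult replicate 1, 2 or 3 these were 217 and 188, 220 and 210, or 242 and 221. Without either TSC1 KO library 0 were called, and the replicate block gave 727 and 921 there. Without Db replicate 2 there were 2467 and 1952 in Db islets. Depth limits Slc25a13 most, with 7 to 33 reads in each islet library.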

Other observations

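Genes whose log2 CPM, centred within each table, followed the called members most closely over the 14 libraries (Pearson r among 12158 genes tested in every comparison, given as a description because libraries of 1 group share their condition) differed by member. For Pcx they were Myt1l (0.979), Sphkap (0.973) and Acot11 (0.973). For Gpd1 they were Bsdc1 (0.964), Nucb1 (0.955) and Slc39a11 (0.954), and for Gpd2 Gm12183 (0.926), Ei24 (0.926) and Usf2 (0.911). Mdh2 was followed by P3h1 (0.962), Tubg1 (0.948) and Rpsa-ps10 (0.944). Got2 was followed by Sdhb (0.941), a succinate dehydrogenase subunit, and Pja1 (0.94). Got1 was followed by Tubb4a (0.934), Entpd4b (0.891) and Snrpd2 (0.875), Slc25a12 by Tomm40l (0.972), Nomo1 (0.964) and Wdr6 (0.963), and Slc25a13 by Tmem110 (0.955), Prcp (0.945) and Zdhhc9 (0.932).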
